A study of Mus musculus with 8 samples.

Results

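Insulin-like growth factor (IGF) signalling and its binding proteins were examined through 10 genes, taken by symbol from the 24421 rows of the count table. They are the ligand gene Igf2, the receptor genes Igf1r, Insr and Igf2r, the adaptor genes Irs1 and Irs2, and the binding protein genes Igfbp3, Igfbp4, Igfbp5 and Igfbp7. All 10 were found and all 10 passed the filter on low counts. RNA sequencing had been done on endothelial cells from the brains of C57Bl6 mouse embryos at E14.5 (embryonic day). There were 4 libraries from Flvcr2 knockout and 4 from Flvcr2 heterozygous embryos. Flvcr2 encodes a membrane transporter, and the comparison asks how its loss changes the transcriptome of brain endothelium. The mutant allele makes cells express GFP, so the heterozygous group also carries a mutant allele, and cells positive for GFP and for the endothelial surface protein CD31 were sorted from both genotypes. Whether the 4 libraries of a genotype are from different embryos is not stated, and the p-values cover the spread among libraries alone, which may in part be technical.

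IGF2 is a growth factor of the fetus that binds the tyrosine kinase receptor IGF1R and a fetal form of the insulin receptor INSR. Both receptors signal through the adaptors IRS1 and IRS2 to PI3 kinase and Akt, which restrain FOXO transcription factors and activate mTOR complex 1. IGF2R, the cation-independent mannose 6-phosphate receptor, carries IGF2 to lysosomes for breakdown and sorts lysosomal enzymes. The binding proteins hold IGFs outside cells. IGFBP7 binds IGFs weakly and is deposited in vessel walls. Igf2 and Igf2r are imprinted, with Igf2 expressed from the paternal and Igf2r in most mouse tissues from the maternal allele.

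Total counts ran from 12.1 to 35.9 M in knockout and from 9.11 to 22.6 M in heterozygous libraries. Levels are given in CPM, counts per M with library sizes scaled by TMM factors. The targeted gene, listed under its older symbol Mfsd7c, averaged 301 ± 73.6 CPM in knockout and 427 ± 124 CPM in heterozygous libraries (SD, n = 4 each), with an edgeR adjusted p of 0.209. The sources do not state which exons are lost, so this level does not check the labels. All 10 endothelial markers were tested and 1 was called, Emcn (log2 fold change 1.19, edgeR adjusted p = 0.00321, higher in knockout), with 5 at an unadjusted p under 0.05. They had a summed level of 8423 to 11578 CPM in knockout and 6309 to 11046 CPM in heterozygous libraries. Of 14 neuron markers 8 were lower in knockout, with a summed level of 97.7 to 306 CPM in knockout and 312 to 1988 CPM in heterozygous libraries. Of 10 tested pericyte and smooth muscle markers 2 were lower (summed level 23.5 to 180.3 CPM in knockout, 178 to 284 CPM in heterozygous libraries), and of 12 fibroblast and meninges markers 1 was lower (113 to 634 CPM in knockout, 254 to 458 CPM in heterozygous libraries). In addition 3 of 10 radial glia, 3 of 5 tested red cell and 1 of 12 microglia markers were lower, and 0 of 6 tested choroid plexus markers. Red cell markers had a summed level of 24.8 to 58.2 CPM in knockout and 253 to 629 CPM in heterozygous libraries. Summed levels of the radial glia, microglia and choroid plexus markers overlapped between genotypes. The radial glia sum was mostly Vim, which was not called, at a mean of 1059 CPM in knockout and 868 CPM in heterozygous libraries. The mean log2 CPM over the radial glia markers was lower in knockout, at 3.40 ± 0.86 against 4.87 ± 0.56 in heterozygous libraries (SD, n = 4 each). Of all tested genes 4.02% were called lower in knockout. The red cell markers Hba-a1 and Hbb-bt were listed at 0 in all libraries, and none of the neuron, pericyte or fibroblast markers was.

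Of the 10 genes, 4 differed between genotypes. Igf2r and Igfbp7 were higher and Igf1r and Irs1 lower in knockout cells, while Igf2, Insr, Irs2, Igfbp3, Igfbp4 and Igfbp5 did not pass the test (edgeR quasi-likelihood test, adjusted p under 0.05 over 13540 genes). The 4 called genes compare with 9.55% of all tested genes called in either direction (5.53% higher, 4.02% lower). In the same 4 genes the knockout and heterozygous ranges did not overlap, as for 17.6% of all tested genes. The median log2 fold change of the 10 genes was -0.33, against -0.03 over all tested genes. When each library was omitted in turn, Igf2r and Igfbp7 were called in all 8 fits, Igf1r in 6 and Irs1 in 2. The number called fell to 2 without knockout 1 or without knockout 4. The other-cell score, the mean log2 CPM over the non-endothelial marker lists, ran from 1.77 to 3.56 in knockout and from 3.70 to 5.05 in heterozygous libraries, so it did not overlap between genotypes, and its part and that of genotype cannot be told apart. With this score, or that of the fibroblast and meninges list, as a covariate, edgeR called 0 of the 10 (5 and 4 at an unadjusted p under 0.05; DESeq2, run without a covariate, called 5). Log2 fold changes with the other-cell score were 1.24 for Igf2r, 1.42 for Igfbp7, -0.89 for Igf1r and -3.22 for Irs1, so these 4 kept their direction.

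**Figure D1:**
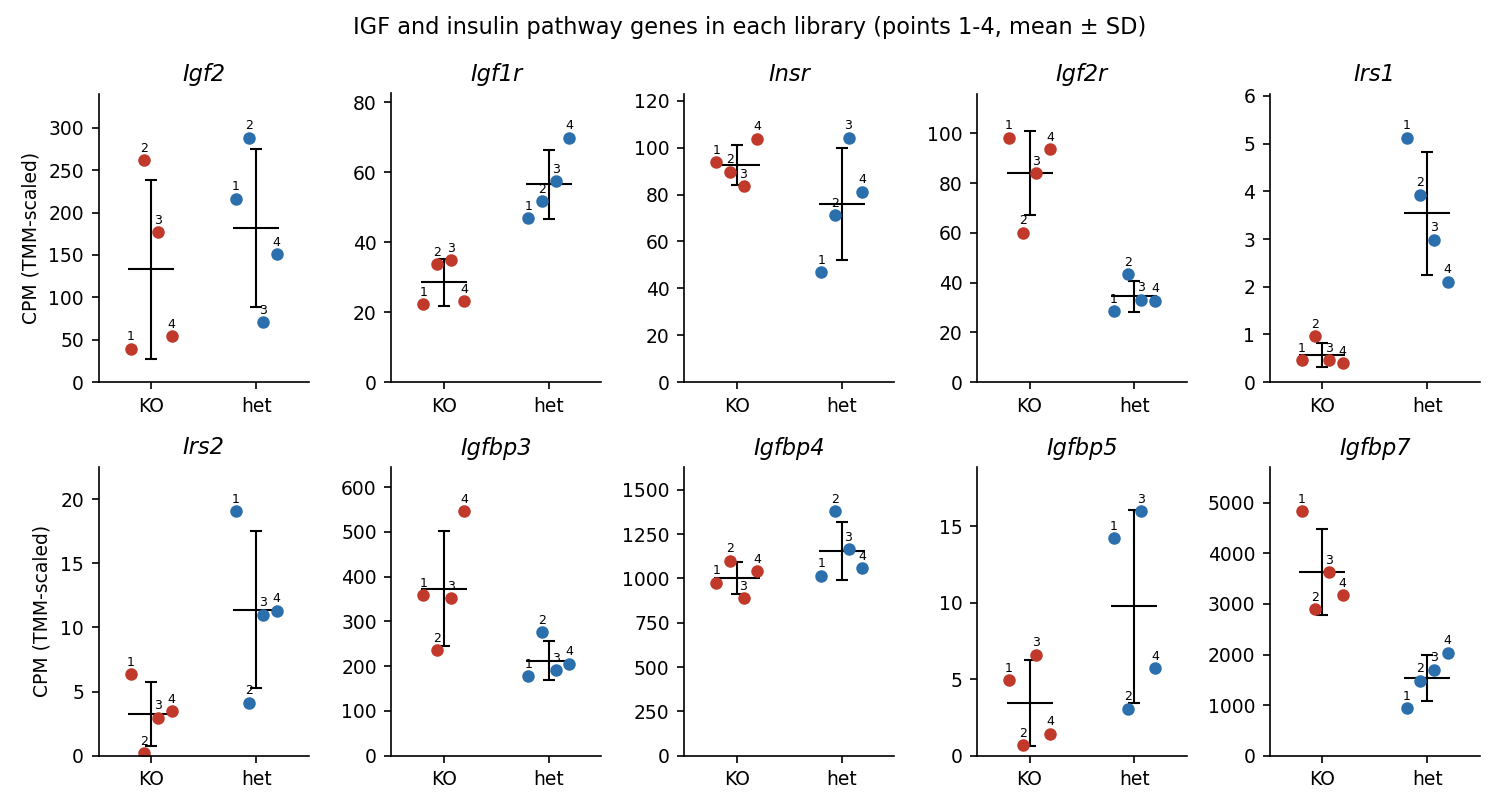
Level of each of the 10 genes in every library, in CPM with TMM-scaled library sizes, for knockout (KO, red, left) and heterozygous (het, blue, right) libraries. Points carry the replicate number, and black bars give the mean ± SD of 4 libraries. The groups are apart for Igf1r, Igf2r, Irs1 and Igfbp7 and overlap for the other 6 genes.

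**Figure D2:**
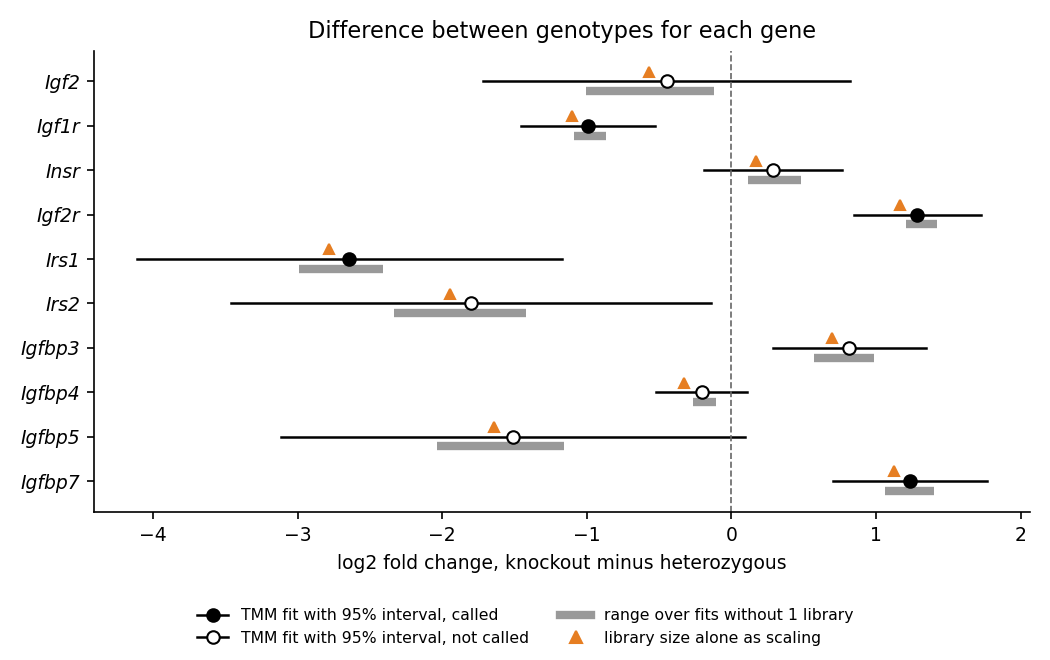
Log2 fold change of each gene, knockout minus heterozygous, with its 95% interval (black line; filled circle where called). Grey bars span the 8 fits that left out 1 library and orange triangles use library size alone as the scaling. All 10 genes keep their side of 0 under library size scaling, where the median of all genes moved by -0.12.

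The sequences before the starts of the 4 called genes are shown because these genes moved in opposite directions. Each is the 250 bases before the RefSeq gene start (GRCm38.p6), written 5′ to 3′ on the gene's strand. Capitals mark the GC box GGGCGG and the E-box CACGTG, searched on both strands; these letters do not overlap each other.
Igf2r, chr17:12769707-12769956, minus strand: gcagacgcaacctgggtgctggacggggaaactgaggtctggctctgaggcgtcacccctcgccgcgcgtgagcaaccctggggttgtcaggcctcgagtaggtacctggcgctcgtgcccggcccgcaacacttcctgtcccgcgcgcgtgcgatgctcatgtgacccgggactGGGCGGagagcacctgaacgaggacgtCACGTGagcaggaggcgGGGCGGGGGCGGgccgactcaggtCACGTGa
Igfbp7, chr5:77408046-77408295, minus strand: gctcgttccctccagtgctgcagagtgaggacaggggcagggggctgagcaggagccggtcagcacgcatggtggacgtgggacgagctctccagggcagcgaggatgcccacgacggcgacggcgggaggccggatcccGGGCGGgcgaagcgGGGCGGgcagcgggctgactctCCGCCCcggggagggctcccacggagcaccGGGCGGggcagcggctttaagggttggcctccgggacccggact
Igf1r, chr7:67952007-67952256, plus strand: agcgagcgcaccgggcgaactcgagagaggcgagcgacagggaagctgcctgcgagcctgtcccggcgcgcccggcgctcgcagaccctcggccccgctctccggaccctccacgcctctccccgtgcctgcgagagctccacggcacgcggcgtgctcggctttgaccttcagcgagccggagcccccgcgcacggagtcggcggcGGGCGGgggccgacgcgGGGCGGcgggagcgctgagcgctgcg
Irs1, chr1:82291440-82291689, minus strand: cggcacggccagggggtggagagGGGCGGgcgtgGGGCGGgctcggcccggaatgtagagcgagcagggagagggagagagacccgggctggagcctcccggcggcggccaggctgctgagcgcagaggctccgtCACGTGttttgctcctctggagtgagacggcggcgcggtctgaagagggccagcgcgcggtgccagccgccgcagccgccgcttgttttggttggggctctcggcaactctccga
The windows of the 2 genes that rose held 69.2% (Igf2r) and 74.0% (Igfbp7) G and C, and those of the 2 that fell held 77.6% (Igf1r) and 72.4% (Irs1), against a median of 52.4% over 32851 RefSeq windows of the same length. A GC box, a sequence bound by SP1-type factors, was found 3 times before Igf2r, 4 times before Igfbp7, 2 times before Igf1r and 2 times before Irs1. It is present in 32.7% of all windows, which were not matched for G and C content. The E-box, bound by factors such as MYC and TFEB, was found 2 times before Igf2r and 1 time before Irs1, and is present in 6.02% of all windows. None of the 4 windows held the letters TATAAA (12.4% of all windows) or the FOXO site TGTTTAC (3.17%). Of the 10 genes, 9 had a window, and Insr had none. Genes not called also had windows rich in G and C, with 73.2% for Igfbp3, 72.8% for Irs2 and 69.2% for Igfbp4. Igfbp5 held 58.8%, and the windows of Igf2 held 47.6% to 68.8%. The Irs2 window held 1 GC box and 1 E-box, and those of Igf2 held up to 2 GC boxes. No GC box or E-box was found before Igfbp3, Igfbp4 or Igfbp5.

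Igf2, the ligand gene, lies on chromosome 7 from 142650766 to 142666816 (GRCm38). Igf2 levels were 39.4, 262, 177 and 54.5 CPM in knockout libraries 1 to 4, against 217, 289, 70.7 and 151 CPM in heterozygous libraries 1 to 4. The groups overlapped almost completely, with low and high libraries in each. Means were 133 ± 106 CPM in knockout and 182 ± 93.0 CPM in heterozygous libraries (SD, n = 4 each), and the log2 fold change was -0.45 ± 0.57 (SE; edgeR adjusted p = 0.673), with a 95% interval from -1.71 to 0.82. Over the alternatives the log2 fold change ran from -1.33 with limma voom (adjusted p = 0.107) to 0.20 with log2 total count as a covariate, without a call in any. It was -1.0 without knockout 2 and 0.19 without heterozygous 2 and knockout 1. Fibroblasts and meninges are a known source of Igf2 in the embryo. Their summed markers stood at 132, 179, 634 and 113 CPM in knockout libraries 1 to 4. In heterozygous libraries 1 to 4 they stood at 458, 255, 427 and 254 CPM. Whether these cells were the source of the Igf2 reads was not tested. With the fibroblast and meninges score as a covariate the log2 fold change of Igf2 was -0.14, and with the other-cell score it was -0.99. In these bulk libraries fewer cells of a type and less RNA per cell cannot be told apart.

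Igf2 was lower in deeper libraries, a relation looked for after the values were seen, whose cause was not tested. Depth here means the total counts assigned to genes, which may differ from the number of reads sequenced (a minimum of 40 M is stated). Knockout libraries 1 to 4 held 770, 3008, 3109 and 1888 raw counts of Igf2 in 21.0, 12.1, 17.9 and 35.9 M, and heterozygous libraries 1 to 4 held 2281, 2717, 1656 and 2714 in 9.56, 9.11, 22.6 and 18.0 M. The 3 shallowest libraries thus had the highest levels and the 3 deepest the lowest. Over the 8 libraries log2 CPM of Igf2 and log2 total count had a Pearson r of -0.84 (exact permutation test, two-sided, p = 0.0066, adjusted over the 10 genes 0.0491) and a Spearman rho of -0.90 (p = 0.00456, adjusted 0.0456). Without heterozygous 2 and knockout 4, the libraries farthest from the median depth, r was -0.77. Within genotypes r was -0.77 in knockout and -0.93 in heterozygous libraries, over 4 libraries each. With log2 total count as a covariate, an alternative added after the data were seen, the log2 fold change of Igf2 was 0.20 (edgeR adjusted p = 0.795). Insr ran the other way, with r = 0.77 (exact permutation test, p = 0.00982, adjusted 0.0491), rho = 0.86 (p = 0.0107, adjusted 0.0536) and r = 0.81 without the same 2 libraries. For the other 8 genes adjusted p was at least 0.245.

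The genes whose log2 CPM was most like that of Igf2 over the 8 libraries, among 10081 genes of at least 5 CPM, were Rbm25 (r = 0.98), a splicing factor gene, H19 (r = 0.97), and the histone chaperone gene Asf1a (r = 0.97). H19 is the maternally expressed non-coding RNA next to Igf2, on chromosome 7 from 142575529 to 142578143, and shares enhancers with it. H19 levels were 49.1, 295, 126 and 46.1 CPM in knockout libraries 1 to 4, against 172, 241, 70.3 and 145 CPM in heterozygous libraries 1 to 4. The 3 highest and the 3 lowest libraries of H19 were the same as those of Igf2, in another order. None of the 3 genes differed between genotypes (edgeR adjusted p = 0.586 for Rbm25, 0.791 for H19 and 0.580 for Asf1a), and all 3 share the libraries and their depths with Igf2.

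**Figure D3:**
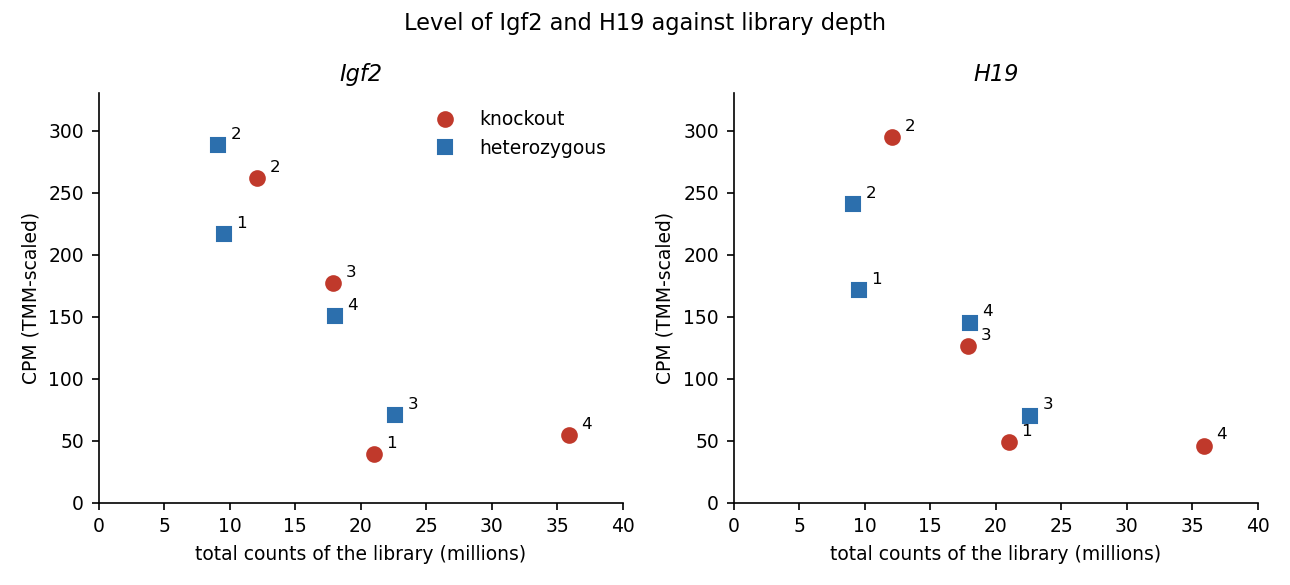
Level of Igf2 (left) and H19 (right) in CPM against the total counts of each library in M, with replicate numbers beside the points. Knockout libraries are red circles and heterozygous libraries blue squares. Levels lie between 39.4 and 289 CPM for Igf2 and between 46.1 and 295 CPM for H19, are lowest in the 3 deepest libraries, and do not separate the genotypes.

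Among the receptors, the clearing receptor gene Igf2r rose, the signalling receptor gene Igf1r fell, and the signalling receptor gene Insr did not pass the test. Igf2r lies on chromosome 17 from 12682406 to 12769664. Igf2r levels were 98.3, 60.1, 83.9 and 93.5 CPM in knockout libraries 1 to 4, against 28.5, 43.4, 33.1 and 32.7 CPM in heterozygous libraries 1 to 4. The lowest knockout library, number 2, lay above the highest heterozygous library, also number 2. The means of 84.0 ± 17.0 CPM in knockout and 34.4 ± 6.35 CPM in heterozygous libraries (SD, n = 4 each) gave a 2.44-fold rise (log2 fold change 1.29 ± 0.20, SE; edgeR adjusted p = 0.00424). Over the 8 fits without 1 library the log2 fold change ran from 1.21 to 1.42.

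Airn, the paternally expressed antisense RNA that silences Igf2r in cis, starts inside Igf2r and is annotated from 12741311 to 12860136 on the opposite strand. Airn levels were 8.69, 9.58, 7.57 and 8.83 CPM in knockout libraries 1 to 4, against 1.71, 2.34, 1.79 and 3.50 CPM in heterozygous libraries 1 to 4. It rose 3.70-fold without overlap of the groups (edgeR adjusted p = 0.0162) and lost its call only without knockout 1 or without knockout 4 when 1 library was omitted. The annotated exons of Airn and Igf2r share 0 bases. The strand setting of the counting is not given, and the Nextera XT kit does not mark strand. Within the stretch that both genes cover, reads from Igf2r introns and from Airn cannot be told apart. Airn extends beyond Igf2r, and counts by gene do not show which part of Airn the reads came from.

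Igf1r, on chromosome 7 from 67952827 to 68233668, encodes the main signalling receptor for IGF1 and IGF2. Igf1r levels were 22.2, 33.7, 35.0 and 23.1 CPM in knockout libraries 1 to 4, against 46.9, 51.8, 57.6 and 70.0 CPM in heterozygous libraries 1 to 4. Every knockout library was below every heterozygous one. Means were 28.5 ± 6.76 CPM in knockout and 56.6 ± 9.94 CPM in heterozygous libraries (SD, n = 4 each), which is a 1.99-fold fall (log2 fold change -0.99 ± 0.21, SE; edgeR adjusted p = 0.0170). The call was lost without knockout 1 or knockout 4, the libraries with the lowest levels, and adjusted p over the 8 fits without 1 library ran from 0.0183 to 0.0582.

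Insr, on chromosome 8 from 3122061 to 3279617, encodes the insulin receptor, which pairs with IGF1R in hybrid receptors. Insr levels were 93.8, 89.8, 83.5 and 104 CPM in knockout libraries 1 to 4, against 47.0, 71.2, 104 and 81.2 CPM in heterozygous libraries 1 to 4. Heterozygous libraries spread more widely and the groups overlapped. The log2 fold change was 0.29 ± 0.22 (SE; edgeR adjusted p = 0.441), not past the threshold, and its 95% interval ran from -0.19 to 0.76.

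Per kilobase of annotated exon, Igf2r was above Igf1r in every knockout library, while in heterozygous libraries it was above Igf1r in library 2 alone. The ratio of Igf2r to Igf1r was 5.68, 2.29, 3.08 and 5.19 in knockout libraries 1 to 4, against 0.780, 1.08, 0.738 and 0.601 in heterozygous libraries 1 to 4. It averaged 4.06 ± 1.63 in knockout and 0.799 ± 0.200 in heterozygous libraries (SD, n = 4 each). Insr over Igf1r averaged 4.19 ± 1.30 in knockout and 1.63 ± 0.43 in heterozygous libraries. These ratios restate the levels of the 2 genes and carry no test of their own.

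**Figure D4:**
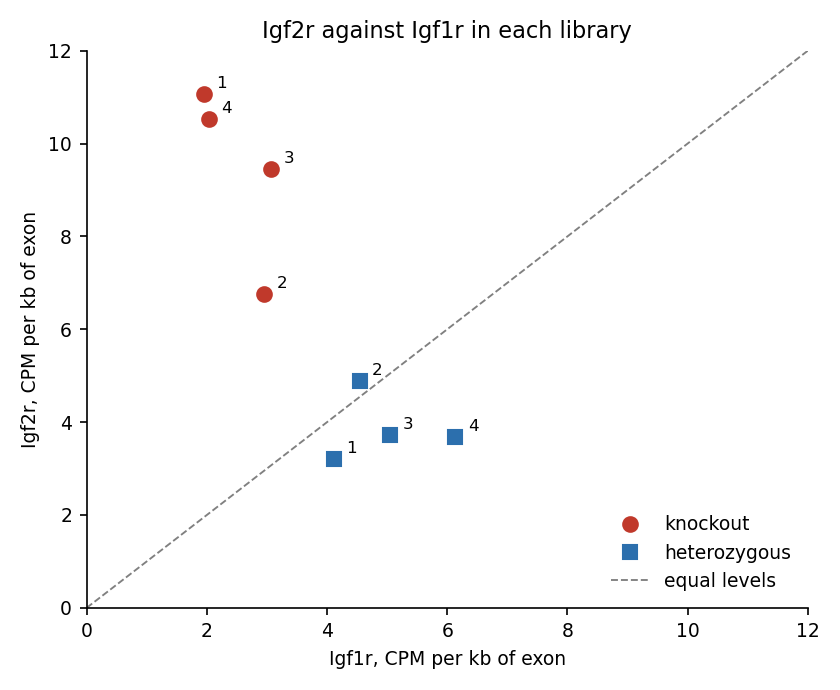
Igf2r against Igf1r in each library, both in CPM per kilobase of exon, with replicate numbers and a dashed line of equal levels. The 4 knockout libraries (red circles) lie above the line with ratios of 2.29 to 5.68, and the 4 heterozygous libraries (blue squares) lie near or below it with ratios of 0.601 to 1.08.

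Both adaptor genes had few counts. Irs1, on chromosome 1 from 82233101 to 82291416, had 9, 11, 8 and 14 counts in knockout libraries 1 to 4, against 54, 37, 70 and 38 counts in heterozygous libraries 1 to 4. Scaled for depth, knockout libraries had 0.460, 0.958, 0.456 and 0.404 CPM, against 5.13, 3.93, 2.99 and 2.11 CPM in heterozygous libraries. The groups did not overlap, and knockout 2 stood above the other knockout libraries. The log2 fold change was -2.64 ± 0.67 (SE), with a 95% interval from -4.11 to -1.17 (edgeR adjusted p = 0.0336). With 1 library omitted the call was lost in 6 of 8 fits and held only without knockout 2 or heterozygous 4, with adjusted p from 0.0352 to 0.104 and log2 fold changes from -2.99 to -2.41.

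Irs2, on chromosome 8 from 10984681 to 11008458, is a gene that FOXO factors are known to activate. Irs2 levels were 6.34, 0.174, 2.96 and 3.49 CPM in knockout libraries 1 to 4, against 19.1, 4.14, 11.0 and 11.3 CPM in heterozygous libraries 1 to 4. Heterozygous 2 lay within the knockout range. The log2 fold change was -1.80 ± 0.75 (SE; edgeR adjusted p = 0.162), not past the threshold. Summed neuron markers stood at 227, 97.7, 306 and 98.3 CPM in knockout libraries 1 to 4 and 1988, 312, 844 and 459 CPM in heterozygous libraries 1 to 4, and library 1 was the highest and library 2 the lowest heterozygous library for both. In knockout libraries number 2 was the lowest for both, while Irs2 was highest in number 1 and neuron markers in number 3. Whether neurons were the source of the Irs2 reads was not tested. With the other-cell score as a covariate the log2 fold change of Irs2 turned to 0.90 (edgeR adjusted p = 0.887). That score did not overlap between genotypes, so its part and that of genotype cannot be told apart.

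The binding protein genes did not move together. Igfbp7, on chromosome 5 from 77349240 to 77408041, had the highest level of the 10 genes per kilobase of exon. Igfbp7 levels were 4837, 2899, 3628 and 3176 CPM in knockout libraries 1 to 4, against 945, 1481, 1703 and 2036 CPM in heterozygous libraries 1 to 4. All 4 knockout libraries were above the heterozygous ones, with knockout 1 highest and heterozygous 1 lowest. Means were 3635 ± 856 CPM in knockout and 1541 ± 458 CPM in heterozygous libraries (SD, n = 4 each), which is a 2.36-fold rise (log2 fold change 1.24 ± 0.24, SE; edgeR adjusted p = 0.0116). The call was lost without heterozygous 2 and knockout 1 together. The end of Igfbp7 overlaps that of Polr2b, a subunit gene of RNA polymerase II on the opposite strand, over 85 exon bases, 7.03% of its exon length. Polr2b itself was not called (log2 fold change 0.69, edgeR adjusted p = 0.0839).

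Igfbp3, on chromosome 11 from 7206086 to 7213923, encodes the main IGF carrier of adult blood and is known as a target of p53. Igfbp3 levels were 359, 236, 352 and 547 CPM in knockout libraries 1 to 4, against 177, 276, 191 and 206 CPM in heterozygous libraries 1 to 4. Knockout 2 lay below heterozygous 2, and the other 3 knockout libraries lay above every heterozygous one. The log2 fold change of 0.82 ± 0.24 (SE) missed the threshold (edgeR adjusted p = 0.0582), with a 95% interval from 0.29 to 1.34. It passed in 6 of 22 alternatives, which were DESeq2 (adjusted p = 0.00832), limma voom (0.0239), no low-count filter (0.0493), a minimum count of 50 (0.0458), and the fits without knockout 2 (0.0207) or without heterozygous 1 and knockout 2 (0.0445). In the others adjusted p reached 0.693.

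Igfbp4, on chromosome 11 from 99041244 to 99054392, encodes a binding protein that also inhibits Wnt signalling. It had 976, 1100, 887 and 1042 CPM in knockout libraries 1 to 4, against 1015, 1380, 1166 and 1058 CPM in heterozygous libraries 1 to 4. The groups overlapped, and the 95% interval of the log2 fold change ran from -0.52 to 0.11 (edgeR adjusted p = 0.399).

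Igfbp5, on chromosome 1 from 72857932 to 72874884, encodes a binding protein that also attaches to extracellular matrix. Igfbp5 levels were 4.96, 0.697, 6.61 and 1.44 CPM in knockout libraries 1 to 4, against 14.2, 3.08, 16.0 and 5.72 CPM in heterozygous libraries 1 to 4. The groups overlapped, and the log2 fold change was -1.51 ± 0.73 (SE; edgeR adjusted p = 0.221), not past the threshold. The 3 libraries with the most fibroblast markers, knockout 3 and heterozygous 1 and 3, were also the 3 highest in Igfbp5. Heterozygous 1 and 3 were the highest in neuron markers as well, at 1988 and 844 CPM. Which cells were the source of the Igfbp5 reads was not tested. With the fibroblast and meninges score as a covariate its log2 fold change was -0.41 (edgeR adjusted p = 0.878), and with the other-cell score it turned to 0.98 (edgeR adjusted p = 0.815).

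Ordered by CPM per kilobase of exon, Igfbp7 came first in each genotype, at 3007 ± 708 in knockout and 1275 ± 379 in heterozygous libraries (SD, n = 4 each). Igfbp4 followed at 255 ± 23.3 in knockout and 294 ± 41.5 in heterozygous libraries, and Igfbp3 at 119 ± 41.0 in knockout and 67.8 ± 14.0 in heterozygous libraries. These 3 genes and Igf2, next in each genotype at 25.4 ± 20.1 in knockout and 34.6 ± 17.7 in heterozygous libraries, had ranges that did not overlap those of their neighbours, except that Igf2 overlapped Insr in knockout libraries. Igf2r and Igf1r exchanged places. Igf2r stood at rank 6 in knockout (9.45 ± 1.91), not separated from Insr (9.91 ± 0.91), and at rank 7 in heterozygous libraries (3.88 ± 0.71), not separated from Igf1r (4.96 ± 0.87), which was at rank 7 in knockout (2.50 ± 0.59). Irs1 came last in each genotype, at 0.0623 ± 0.0285 in knockout and 0.387 ± 0.142 in heterozygous libraries. Its range overlapped that of Irs2 in knockout and that of Igfbp5 in heterozygous libraries. Exon lengths are unions over the basic transcripts of GENCODE M21, which may differ from the annotation used for counting.

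Of the other genes for IGF ligands, receptors, binding and processing proteins, 12 of 20 were tested, 0 rose and 2 fell. The share called was 16.7%, against 9.55% of all tested genes, and the median log2 fold change was -0.16. Igfbp2, a binding protein gene next to Igfbp5 on chromosome 1 (72824503 to 72852474), had 101, 224, 243 and 144 CPM in knockout libraries 1 to 4, against 517, 541, 479 and 665 CPM in heterozygous libraries 1 to 4. It fell 3.09-fold (log2 fold change -1.63 ± 0.26, SE; edgeR adjusted p = 0.00467), with every knockout library below every heterozygous one, and kept its call whichever single library was omitted. Igfbpl1, a gene for a related binding protein expressed in the developing forebrain, also fell. It had 14.0, 4.70, 16.5 and 3.84 CPM in knockout libraries 1 to 4, against 111, 16.5, 44.9 and 34.5 CPM in heterozygous libraries 1 to 4 (edgeR adjusted p = 0.0359). Its call held in 3 of the 8 fits, and with the other-cell score as a covariate its log2 fold change turned to 0.18. Heterozygous 1, its highest library, was also the highest in neuron markers. Whether neurons were the source of the Igfbpl1 reads was not tested.

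None of the 24 receptor adaptor and PI3K-Akt genes was called, and their median log2 fold change was -0.01 (edgeR; 4 at an unadjusted p under 0.05, while DESeq2 called 1 and limma voom 2). The 2 with the highest mean CPM, named by rule, were the kinase gene Akt1, at 520 ± 141 CPM in knockout and 463 ± 72.6 CPM in heterozygous libraries, and Grb10, an imprinted adaptor gene that dampens both receptors, at 175 ± 20.6 CPM in knockout and 156 ± 20.7 CPM in heterozygous libraries (SD, n = 4 each). Their 95% intervals ran from -0.28 to 0.61 and from -0.16 to 0.50 on the log2 scale. Of 16 genes listed for the mTOR complex 1 branch 2 rose and 0 fell, with a median log2 fold change of 0.22. The list also held Rictor, a subunit gene of mTOR complex 2, which was not called. The shares called, 0% of the adaptor and PI3K-Akt list and 12.5% of this branch, compare with 9.55% of all tested genes. Eif4ebp1, the translation repressor gene, rose 5.26-fold to 468 ± 140 CPM in knockout, against 89.0 ± 12.9 CPM in heterozygous libraries (edgeR adjusted p = 7.08e-04). Sesn2, a leucine sensor gene that restrains mTOR complex 1, rose 2.94-fold to 60.0 ± 31.9 CPM in knockout, against 20.4 ± 2.15 CPM in heterozygous libraries (edgeR adjusted p = 0.0198). Both are also known targets of the stress factor ATF4. The Sesn2 call was lost without knockout 1, knockout 4 or heterozygous 1.

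Of 17 FOXO factors and targets 0 rose and 2 fell, with a median log2 fold change of -0.27. The share called was 11.8%, against 9.55% of all tested genes. Txnip, a thioredoxin inhibitor gene that lowers glucose uptake, fell 3.67-fold to 44.5 ± 13.8 CPM in knockout, against 163 ± 25.3 CPM in heterozygous libraries (edgeR adjusted p = 0.00168). Klf2, a flow-responsive transcription factor gene, fell 2.55-fold to 111 ± 21.0 CPM in knockout, against 282 ± 102 CPM in heterozygous libraries (edgeR adjusted p = 0.00930). Both kept their calls whichever single library was omitted, and both are also controlled by factors other than FOXO. Of 12 tested imprinted growth genes Airn rose and Cdkn1c fell, a share of 16.7%, with a median log2 fold change of -0.22. Cdkn1c, a cell cycle inhibitor gene expressed from the maternal allele, fell 3.27-fold to 140 ± 45.7 CPM in knockout, against 456 ± 63.0 CPM in heterozygous libraries (edgeR adjusted p = 0.00232). With the other-cell score as a covariate the 8 called genes of these lists lost their calls, and edgeR adjusted p was 0.161 for Eif4ebp1, 0.119 for Txnip and 0.271 for Cdkn1c. Their log2 fold changes in that fit were 1.91 for Eif4ebp1, -2.06 for Txnip and -1.37 for Cdkn1c.

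**Figure D5:**
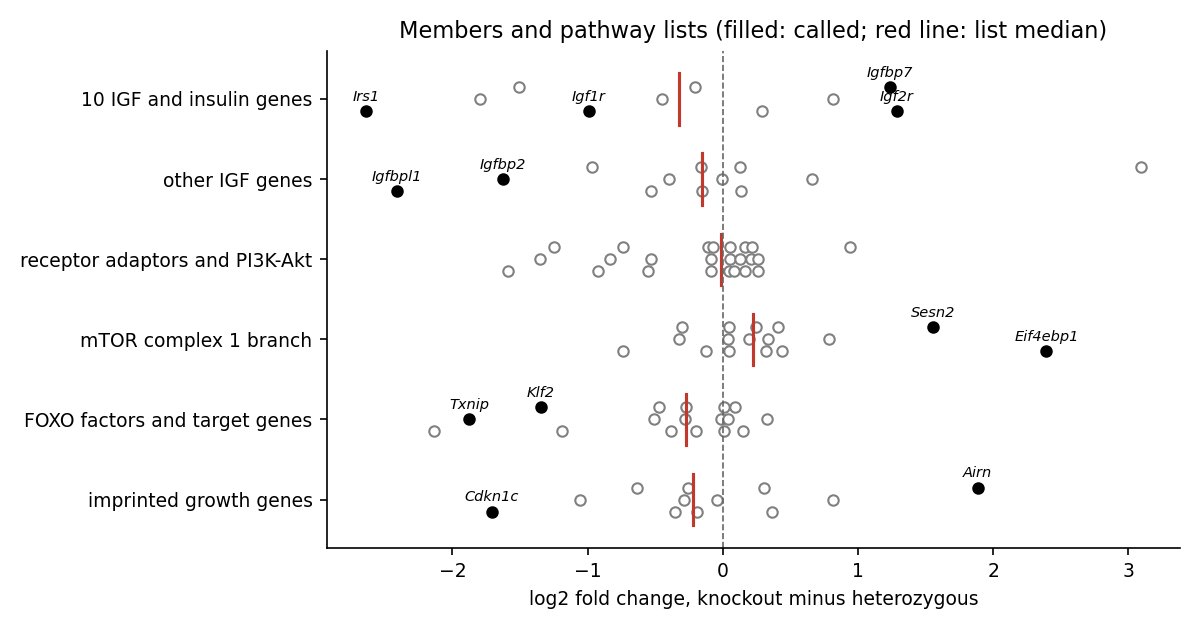
Log2 fold change, knockout minus heterozygous, of each tested gene among the 10 IGF and insulin genes and 5 pathway lists. Filled circles with names passed an adjusted p of 0.05 and red lines mark the median of each list. List medians lie between -0.33 and 0.22, with 4 of the 10 genes called and 0 of the 24 receptor adaptor and PI3K-Akt genes. Of all tested genes 9.55% were called.

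Igf2r, the gene with the smallest p among the 10, was most like Cpox (r = 0.99), Esm1 (r = 0.99) and Fam114a1 (r = 0.98) in log2 CPM over the 8 libraries. Cpox encodes an enzyme of heme synthesis and Esm1 a proteoglycan of endothelial tip cells. All 3 rose in knockout, with log2 fold changes of 1.35, 3.82 and 2.02 (edgeR adjusted p = 0.00573, 0.00107 and 7.67e-04). Cpox levels were 69.3, 45.0, 57.4 and 68.9 CPM in knockout libraries 1 to 4, against 18.3, 31.3, 25.2 and 19.4 CPM in heterozygous libraries 1 to 4. As for Igf2r, number 2 was the lowest knockout and the highest heterozygous library. The genes share their libraries and a difference between genotypes, which raises such correlations.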

How the data were processed

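The authors deposited 1 table of unnormalized counts by gene symbol. TopHat2 0.7, Cufflinks 2.2.1 and mm10 are named in the submitters' processing notes. The counting program, strand setting and use of multiply mapped reads were not given in the sources used here. Per the labels' protocols, complementary DNA was made with SMART-Seq v4 and libraries with Nextera XT. Per the series text, each library came from 2000 to 5000 cells, with reads of 50 nucleotides on a HiSeq4000.

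Counts were analysed in R 4.3.3 with edgeR 4.0.16. The filterByExpr filter (minimum count 10, minimum total 15) kept 13540 genes with 99.9% of the counts. Library sizes were TMM-scaled, and knockout was compared with heterozygous by the robust quasi-likelihood F-test, without covariates, with Benjamini-Hochberg adjustment over all tested genes. SE is the size of the log2 fold change divided by the square root of F. Log2 CPM used a prior count of 2. Coordinates and exon lengths come from GENCODE M21 (GRCm38, the build of mm10), and upstream sequences from RefSeq. In the annotation Igf2 shares most exon bases with the same-strand gene Gm49394, and Irs1 shares 30.9% with Gm9747 on the opposite strand; neither is a row of the table.

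The genes and lists were chosen with earlier results of these data known. All 10 genes are named, with up to 4 called genes per list in order of p (the 2 of highest CPM if a list had no call), and the 3 genes most correlated with Igf2 and with the called one of the 10 that had the smallest p. On simulated counts for this comparison (13210 genes tested), 24% of 100 genes changed by 2-fold and 59% of 100 changed by 4-fold were recovered, with 7 false among 90 calls. The data gave 1293 calls, and the adjusted threshold depends on how many genes change, so recovery in the data may differ. Within each genotype every pair of libraries differed by more than sampling noise (lowest chi-square over degrees of freedom 29.0). Alternatives were other scalings, filters, DESeq2 1.42.0, limma 3.58.1 voom, covariates and left-out libraries.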

Additional observations from a re-analysis of the deposited data

Results flagged for a closer look

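Irs1 in knockout 2 stood apart, at 0.958 CPM against 0.404 to 0.460 CPM in the other 3 knockout libraries, and its gap to the nearest of them took 0.899 of the group's range. The value rests on 11 counts. Of 54 groups of 4 libraries examined for 27 genes, this was 1; chance flags about 1 in 20.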

How the results depend on the processing

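Over the 22 alternatives the number of the 10 genes called ran from 0 to 5, against 4. It was 0 with the other-cell score or the fibroblast and meninges score as a covariate and 1 without heterozygous 2 and knockout 1 together. These libraries had at most 1 count of Xist (229 to 1135 in the other 6). They held 331 and 914 counts of the Y chromosome gene Ddx3y, against 0 to 56 in the other 6. Both thus show a male pattern, and sex was not a term of the main fit. Leaving out 1 library gave 2 to 5. Over all genes 1293 were called, and 579 to 1347 without 1 library (579 without knockout 1, 625 without knockout 4, 787 without heterozygous 1, 790 without heterozygous 3). The count was 2229 with DESeq2, 2290 with limma voom, 13 with the other-cell score, 147 with the fibroblast and meninges score, 640 with log2 total count as a covariate (added after the data were seen), 300 without heterozygous 2 and knockout 1, and 842 without heterozygous 1 and knockout 2. The cause was not tested. Calls were 57.9% higher in knockout, 42.6% with library size alone as the scaling, which moved the all-gene median log2 fold change by -0.12, and 48.0% with upper quartile scaling; the 4 called genes kept call and direction under each scaling.

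Log2 fold changes reversed for Igf2 (0.19 without heterozygous 2 and knockout 1, 0.20 with total count), H19 (-1.08 to 0.012 without 1 library, 0.29 without heterozygous 2 and knockout 1, 0.23 with total count), Akt1 (-0.017 with total count), Rbm25 (0.026 with the fibroblast score) and, with the other-cell score, Insr (-0.018), Irs2 (0.90), Igfbp5 (0.98), Igfbpl1 (0.18) and Grb10 (-0.037). None of these was called there. Replicate numbers are shared by the genotypes, but same-numbered libraries did not deviate together (correlations 0.06, 0.21, -0.05 and 0.02; replicate 2 alone matched its own number best). A replicate block called 868 genes, 4 of them among the 10, with Irs2 called (adjusted p = 0.0467) and Irs1 not (adjusted p = 0.0897). Irs1 was left untested at a minimum count of 50. Irs1 had 8 to 14 counts in knockout libraries.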

Other observations

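Spearman's rho of Igf2 with total count over the 8 libraries was -0.90. Of 13540 tested genes, 25 had a rho as low as that of Igf2 or lower, 0.185% of them. Stc2, a stanniocalcin gene whose protein blocks release of IGFs from binding proteins, was outside the named genes and is given after its values were seen. It had 6.95, 9.06, 3.76 and 16.6 CPM in knockout libraries 1 to 4, against 2.09, 0, 1.66 and 0.444 CPM in heterozygous libraries 1 to 4, without overlap (edgeR adjusted p = 0.0528).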
